A study of Mus musculus with 18 samples.

Results

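The response of C3H10T1/2 mouse fibroblasts to an adipogenic mix was measured in cells that also received EGF and TCDD. It was read on 4 of the 18 arrays of the series, 2 labelled IDMB+EGF+TCDD and 2 labelled EGF+TCDD, the titles giving the group of each array. C3H10T1/2 is an established line of mouse embryo fibroblasts that can be turned into fat, bone, cartilage or muscle cells in culture. IDMB is a mix of insulin (10 µg/mL), dexamethasone (1 µM), IBMX (0.5 µM) and BRL49653 (1 µM), given for 24 h. The IBMX dose is printed as labelled and lies far below the one usual for such a mix. Cells of both groups had 10 nM EGF for 24 h and 10 nM TCDD for 72 h, so the mix is the only labelled treatment that separates them. The arrays of the groups also differed in the actin 3' to 5' ratio given below. The cells set beside them were labelled IDMB and UT (3 arrays each), IDMB+EGF and EGF (2 each), and IDMB+TCDD and TCDD (2 each), with the same doses and times. UT is not spelled out in the labels and was read as cells with none of the agents. Each array carried RNA pooled from 6 cultures, harvested at 24 h of confluence, 72 h from the last addition of serum. No label says that replicate arrays came from separate experiments, so the p-values measure the spread between arrays, which may be technical.

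Each part of the mix acts on its own pathway. Dexamethasone activates the glucocorticoid receptor, IBMX blocks the phosphodiesterases that break down cAMP, insulin acts through its own receptor and that of IGF1, and BRL49653 (rosiglitazone) activates PPARG, the nuclear receptor that drives fat cell differentiation. In fibroblasts the glucocorticoid and the cAMP signal first raise CEBPB and CEBPD, which then switch on PPARG and CEBPA and with them the genes of the fat cell. EGF, a growth factor that signals through ERK, and TCDD, a dioxin that binds the aryl hydrocarbon receptor (AhR), are both known to hold this programme back.

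Cyp1b1 and Cyp1a1 were read as a check of the TCDD label, against EGF arrays without TCDD, a difference that was not tested. Cyp1b1, an AhR target that encodes a cytochrome P450, read 155982 and 148566 on the IDMB+EGF+TCDD arrays and 115017 and 114631 on the EGF+TCDD arrays. On the EGF arrays it read 26645 and 39679. Cyp1a1, the classical AhR target, read 1879 and 1947 on the IDMB+EGF+TCDD arrays, 6441 and 3651 on the EGF+TCDD arrays, and 285 and 203 on the EGF arrays. The mix itself did not move either gene past the test (log2 0.41 and -1.34, adjusted p = 0.281 and 0.271). The fibroblast collagen gene Col1a1 read 87539 and 92887 on the IDMB+EGF+TCDD arrays, against 150819 and 134951 on the EGF+TCDD arrays. A probe was tested where the mean log2 signal of at least 1 of the 8 groups reached the median of all values, and is otherwise called too dim. Of 17 fibroblast genes on the array 14 were bright enough to test, among them Col1a2, Thy1, S100a4 and Pdgfrb, and the probe of Vim was not. Values are scaled signal intensities. For the tests, values under 143.5 (the 20th percentile over all arrays) were set to that floor before log2 was taken. Array medians ran from 793.35 to 935.7, and replicate arrays within a group correlated at r 0.955 in IDMB+EGF+TCDD and 0.958 in EGF+TCDD. The 3' to 5' signal ratio of the actin control probes was 2.48 and 3.80 on the IDMB+EGF+TCDD arrays, against 1.93 and 1.64 on the EGF+TCDD arrays. That ratio, a sign of RNA length, moved with the mix, and its part in the results was not tested beyond the fit in which it stood as a covariate.

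The mix changed 380 genes in the presence of EGF and TCDD. With limma and an adjusted p under 0.05, 204 of the 5438 genes measured rose (3.75%) and 176 fell (3.24%), together 6.99% of those tested. The median log2 change over all genes was -0.03. By probe, 246 of 7134 rose and 218 fell (464, 6.5%). Fewer probes were called with 1 array left out: 214, 177, 177 and 220 probes were called without EGF+TCDD 1, EGF+TCDD 2, IDMB+EGF+TCDD 1 and IDMB+EGF+TCDD 2. Genes are described below with the fits in which their calls were lost. In each of these fits the median standard error was 1.24-fold to 1.25-fold that of the full fit. A lost call alone therefore does not show that a gene depended on the array left out. For Fdps the log2 change ran only from -2.26 to -2.14, while that of Myl9 ran from -3.49 to -1.58. With the actin ratio as a covariate 101 probes were called, 96 of them among the 464, while the median standard error grew 1.65-fold. Of 70 called probes that stand for genes named in the text, all 70 kept their direction with that covariate, 30 kept their call and 40 lost it. Those that kept it include Rgs2, Mt1, Mt2, Zbtb16, Errfi1, Cebpb, Pnpla2, Serpina3n, Gas6, Ccnd1, Acta2 and Ccn2. Those that lost it include Fkbp5 (adjusted p = 0.0891), Per1, Sgk1, Cebpd, Stat5a, Abhd5, Lipe, Lcn2, Vcan and Tpm1, all called S phase and cholesterol genes described below, and others whose values with the covariate are given where they moved over 1.5-fold. Of the calls that were kept, the log2 change grew by more than that to -4.83 for Ccl2, -3.89 for Ccnd1, 5.20 for Enpep, 3.45 for Hp, 5.34 for Mt1, -4.06 for Myl9, 3.21 for Saa3 and 3.75 for Sphk1.

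Among rises measured above the floor in both groups, the largest named was that of Rgs2, a GTPase activating protein that shortens signalling by G protein coupled receptors and is known as an early cAMP responsive gene. Rgs2 read 38718 and 16658 on the IDMB+EGF+TCDD arrays, against 1008 and 862 on the EGF+TCDD arrays. Both arrays with the mix lay far above both without it, although they differed from each other. The difference was 27.3-fold (log2 4.77, SE 0.39, adjusted p = 1.61e-06), with log2 4.16 without IDMB+EGF+TCDD 1 and 5.38 without IDMB+EGF+TCDD 2. Per1, a clock gene that responds to cAMP and to glucocorticoids, read 2462 and 2624 on the IDMB+EGF+TCDD arrays and 798 and 603 on the EGF+TCDD arrays (log2 1.87, adjusted p = 0.00384, 0.0589 without EGF+TCDD 2). Of 10 cAMP responsive genes measured, Rgs2 and Per1 rose (20%, against 3.75% of all genes), none fell and 8 did not pass the test. The median of that list was log2 0.05.

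The gene lists were chosen with earlier results of these data known, so the shares called within them are descriptive and were not tested. Lists also share members, so their shares are not independent. Of the rises in the glucocorticoid list, Cebpd and Klf9 are also counted among the adipogenic factors. Per1 is also counted among cAMP genes, Errfi1 among EGF genes and Lcn2 among epithelial genes. Among the lists used, that of genes that respond to glucocorticoids held the most rises. Of 36 such genes on the array 28 were bright enough to test, and 14 rose while 2 fell (57.1%, against 6.99% of all genes). Their median log2 change was 1.25. Fkbp5, a co-chaperone of the glucocorticoid receptor, read 10241 and 10385 on the IDMB+EGF+TCDD arrays, against 1660 and 2052 on the EGF+TCDD arrays. The groups did not overlap, and the difference was 5.59-fold (log2 2.48, SE 0.36, adjusted p = 0.000475), called in all 4 fits with 1 array left out. The metallothioneins, small proteins that bind zinc and copper, moved further. Mt1 read 120218 and 111970 on the IDMB+EGF+TCDD arrays and 5446 and 4706 on the EGF+TCDD arrays, a 22.9-fold difference (adjusted p = 0.000129). Mt2 read 211568 and 218846 on the IDMB+EGF+TCDD arrays and 24249 and 21287 on the EGF+TCDD arrays, a 9.47-fold difference (adjusted p = 0.000126). Zbtb16, a zinc finger repressor, read 2479 and 1991 on the IDMB+EGF+TCDD arrays and lay below the floor on both EGF+TCDD arrays, so it was at least 15.5-fold higher (adjusted p = 8.4e-05). Ctla2b, a cysteine protease inhibitor homologue, was at least 11.6-fold higher by the same measure (adjusted p = 0.000816, 0.172 and log2 2.89 with the actin covariate). Errfi1, a feedback inhibitor of the EGF receptor that glucocorticoids also induce, read 28118 and 25472 on the IDMB+EGF+TCDD arrays and 6370 and 5385 on the EGF+TCDD arrays. It was 4.57-fold higher (adjusted p = 1.3e-05), and its other probe rose too (log2 1.87, adjusted p = 0.00319). Sgk1, a serum and glucocorticoid regulated kinase, read 22474 and 28707 on the IDMB+EGF+TCDD arrays and 7439 and 5918 on the EGF+TCDD arrays (log2 1.94, adjusted p = 0.0183). That call was lost when any of the 4 arrays was left out (adjusted p between 0.0707 and 0.135). The 2 members that fell were Ccn2, described with the matrix genes below, and Lox, lysyl oxidase. Lox changed by log2 -0.80 (adjusted p = 0.0397), a call lost when any of the 4 arrays was left out (0.121 to 0.211).

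The promoters of Rgs2 and Sgk1 are shown because each carries letters to which a factor downstream of the mix is known to bind. They are the 250 bases before the gene's start on the coding strand, from RefSeq on GRCm38.p6, with the matches in capitals. In Rgs2 (chr1:144004150-144004399, minus strand) the capitals mark the core of the cAMP response element, TGACG, read on either strand, at 185 and 67 bases before the start.
Rgs2: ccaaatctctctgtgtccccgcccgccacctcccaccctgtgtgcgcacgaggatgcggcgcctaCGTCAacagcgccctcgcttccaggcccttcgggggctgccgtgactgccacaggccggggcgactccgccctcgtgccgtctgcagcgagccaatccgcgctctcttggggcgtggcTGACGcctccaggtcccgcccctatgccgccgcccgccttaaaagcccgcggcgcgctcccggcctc
In Sgk1 (chr10:21993640-21993889, plus strand, 1 of 6 starts in the table) they mark the glucocorticoid response element (AGAACA, any 3 bases, TGTTCT), whose first base lies 189 bases before the start.
Sgk1: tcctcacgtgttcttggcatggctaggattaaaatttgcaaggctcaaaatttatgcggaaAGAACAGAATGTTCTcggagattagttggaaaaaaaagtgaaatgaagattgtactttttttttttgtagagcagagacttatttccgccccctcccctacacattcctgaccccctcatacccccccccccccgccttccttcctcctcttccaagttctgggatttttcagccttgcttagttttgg
The letters TGACG, on either strand, stood in 17.8% of all 32851 promoter windows searched, and in each of the 3 windows of Rgs2 and Per1. The full palindrome of the glucocorticoid element stood in 3 of the 32851 windows. Of the 14 glucocorticoid genes that rose 11 had a window, and Sgk1 alone held that palindrome. No match means only that these letters are not within 250 bases of the start.

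**Figure D1:**
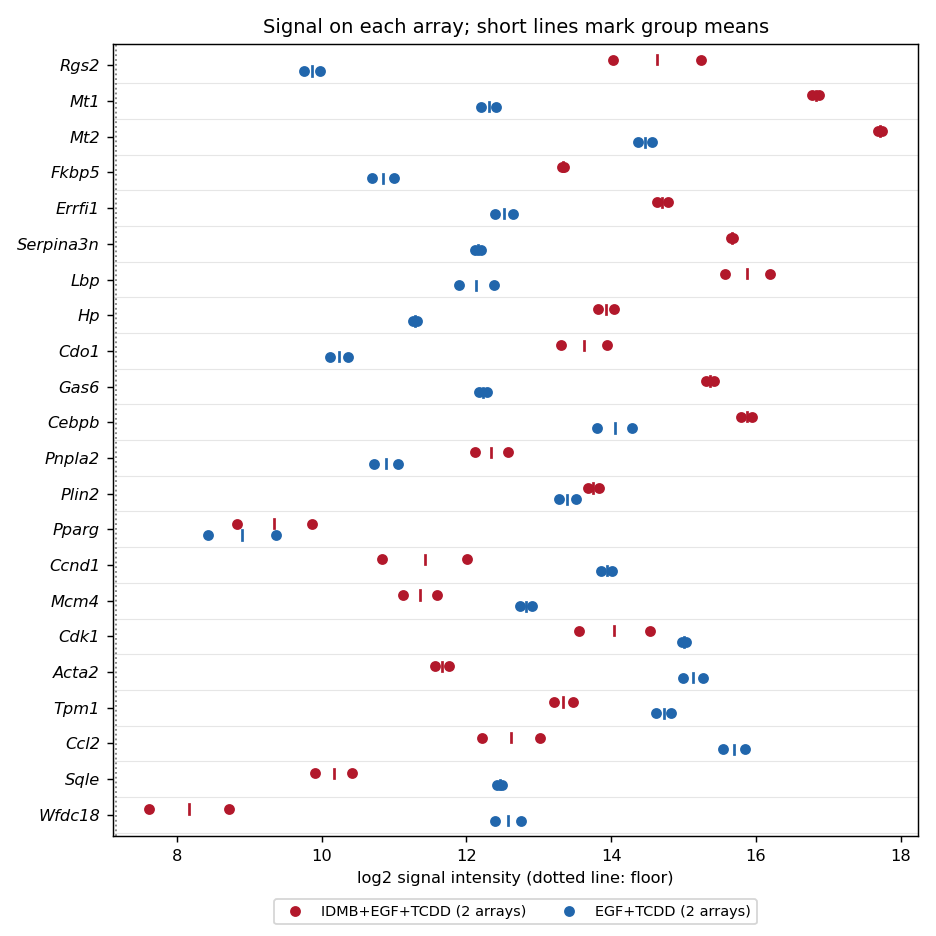
Signal of 22 genes on the 2 IDMB+EGF+TCDD arrays (red) and the 2 EGF+TCDD arrays (blue), on a log2 axis, with group means as short lines and the floor dotted. Rgs2, Mt1, Fkbp5 and the genes down to Pnpla2 lie to the right with the mix, Pparg overlaps, and Ccnd1, Mcm4, Cdk1, Acta2 and the genes below them lie to the left.

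Of 15 adipogenic transcription factors measured 5 rose (33.3%, against 3.75% of all genes), none fell and 10 did not pass the test. Their median log2 change was 0.48. Cebpb read 63276 and 56799 on the IDMB+EGF+TCDD arrays, against 19987 and 14327 on the EGF+TCDD arrays. This was 3.54-fold higher (log2 1.82, SE 0.20, adjusted p = 3.43e-05) and was called in all 4 fits with 1 array left out. Cebpd rose by log2 1.09 (adjusted p = 0.00308, 0.0552 without EGF+TCDD 2). Klf9, a Krüppel-like factor, rose by log2 1.41 (adjusted p = 0.00278). Nfil3, a basic leucine zipper repressor, rose on both of its probes (log2 3.05 and 2.48, adjusted p = 0.000114 and 0.000928). The probe that gave 3.05 is of the kind that can also read near-identical family members. Stat5a, a transducer of growth hormone and prolactin signals, rose by log2 0.83 (adjusted p = 0.00308, 0.0541 without IDMB+EGF+TCDD 2). Pparg itself read 931 and 455 on the IDMB+EGF+TCDD arrays and 663 and 344 on the EGF+TCDD arrays. The groups overlapped, and the difference was log2 0.45 (SE 0.42, adjusted p = 0.627). Cebpa read 3823 and 4411 on the IDMB+EGF+TCDD arrays and 5800 and 5890 on the EGF+TCDD arrays (log2 -0.51, adjusted p = 0.633). Srebf1, a regulator of lipid synthesis, differed by log2 0.48 (adjusted p = 0.075).

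Of the fat cell genes themselves, 3 that act in triglyceride breakdown rose, as did Hp. Among 28 adipocyte and PPARG target genes on the array 19 were tested, 4 rose (21.1%, against 3.75% of all genes) and none fell. The median log2 change was 0.71. Pnpla2, the triglyceride lipase of fat cells, read 6114 and 4438 on the IDMB+EGF+TCDD arrays, against 1693 and 2129 on the EGF+TCDD arrays. It was 2.74-fold higher (log2 1.46, SE 0.21, adjusted p = 0.000397). Abhd5, the protein that activates this lipase, read 3749 and 3645 on the IDMB+EGF+TCDD arrays and 1336 and 1160 on the EGF+TCDD arrays, 2.97-fold higher (adjusted p = 0.00251). Lipe, hormone-sensitive lipase, was 4.09-fold higher (adjusted p = 0.0106), a call that held only without EGF+TCDD 1 and was lost without any of the other 3 arrays (0.0661 to 0.091) or with the actin covariate (log2 2.65, adjusted p = 0.0965). Hp, haptoglobin, a plasma protein that fat cells also secrete, was 6.22-fold higher (adjusted p = 0.00202).

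Markers of the mature fat cell stayed dim or did not pass the test. Adipoq, which encodes adiponectin, read 185 and 476 on the IDMB+EGF+TCDD arrays and 336 and 79.5 on the EGF+TCDD arrays, so the groups overlapped (log2 0.43, SE 0.55, adjusted p = 0.738). Fabp4, the fatty acid binding protein of fat cells, read 726 and 598 on the IDMB+EGF+TCDD arrays and 406 and 320 on the EGF+TCDD arrays (log2 0.87, adjusted p = 0.235). Lpl, lipoprotein lipase, lay below the floor on both IDMB+EGF+TCDD arrays and read 282 and 344 on the EGF+TCDD arrays (adjusted p = 0.475). Plin2, which coats lipid droplets, read 14592 and 13097 on the IDMB+EGF+TCDD arrays and 9918 and 11719 on the EGF+TCDD arrays (log2 0.36, adjusted p = 0.451). The PPARG targets Angptl4, an inhibitor of lipoprotein lipase, and Pdk4, a kinase that restrains pyruvate oxidation, differed by log2 1.69 and 1.83 without passing the test (adjusted p = 0.0852 and 0.0739). Of 15 fatty acid synthesis genes 1 rose (6.67%) and none fell, at a median of -0.08. In the insulin and IGF list 1 of 23 rose (4.35%). Both shares lie near the 3.75% of all genes that rose. Irs2, an adaptor of the insulin receptor, read 1375 and 874 on the IDMB+EGF+TCDD arrays and 257 and 265 on the EGF+TCDD arrays (log2 2.07, adjusted p = 0.0523). For Igf1 the brighter probe gave log2 0.09 (adjusted p = 0.898) and the other 3.74 (adjusted p = 0.00266, 0.0545 and log2 4.56 with the actin covariate), so its probes disagreed.

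Several acute phase proteins rose, while a chemokine for monocytes fell. Of 22 inflammatory and chemokine genes tested 6 rose and 3 fell (40.9%, against 6.99% of all genes), with a median log2 change of 0.27. Serpina3n, a serine protease inhibitor of the acute phase, read 51576 and 52385 on the IDMB+EGF+TCDD arrays, against 4699 and 4442 on the EGF+TCDD arrays. That 11.4-fold difference (log2 3.51, SE 0.37, adjusted p = 1.95e-05) far exceeded the distance between replicates. Lcn2, which binds bacterial siderophores, was 5.32-fold higher (adjusted p = 0.00115), and Saa3, a serum amyloid A protein, 5.61-fold higher (adjusted p = 0.00251). Lbp, the lipopolysaccharide binding protein, read 74707 and 48512 on the IDMB+EGF+TCDD arrays and 5324 and 3819 on the EGF+TCDD arrays, 13.4-fold higher (adjusted p = 1.05e-07). Ccl2, the chemokine that attracts monocytes, read 4768 and 8288 on the IDMB+EGF+TCDD arrays, against 47905 and 58767 on the EGF+TCDD arrays. It fell by 3.08 on the log2 scale (SE 0.57, adjusted p = 0.0033, 0.0588 without IDMB+EGF+TCDD 1). Chil1, a lectin of the chitinase family, was lower by 5.69-fold (adjusted p = 0.0255), a call lost when any of the 4 arrays was left out (0.0744 to 0.175).

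The other large rises spread over enzymes and receptors. Gas6, the ligand of the receptor kinases Tyro3, Axl and Mertk, read 40438 and 43790 on the IDMB+EGF+TCDD arrays, against 4976 and 4606 on the EGF+TCDD arrays. It was 8.79-fold higher (log2 3.14, SE 0.30, adjusted p = 9.5e-06). Its receptor Tyro3 moved the other way. Tyro3 lay below the floor on both IDMB+EGF+TCDD arrays and read 1236 and 1312 on the EGF+TCDD arrays, so it was at least 8.88-fold lower (adjusted p = 0.000375). Cdo1, the dioxygenase that starts cysteine breakdown, read 15800 and 10129 on the IDMB+EGF+TCDD arrays and 1317 and 1107 on the EGF+TCDD arrays, 10.5-fold higher (adjusted p = 2.53e-06). Tnfrsf21, a death receptor, was 16.2-fold higher (adjusted p = 0.00026) and Wdr92, a WD repeat protein, 9.06-fold higher (adjusted p = 3.28e-06). Sphk1, which makes sphingosine 1-phosphate, was 8.08-fold higher (adjusted p = 5.1e-05), with log2 2.40 without EGF+TCDD 1 and 3.63 without EGF+TCDD 2. Enpep, glutamyl aminopeptidase, read 2323 and 699 on the IDMB+EGF+TCDD arrays and lay below the floor on both EGF+TCDD arrays. It was at least 8.88-fold higher (adjusted p = 0.00663), but the call was lost without EGF+TCDD 2 (0.0537) or IDMB+EGF+TCDD 1 (0.122, log2 2.28), and without IDMB+EGF+TCDD 2 the change was log2 4.02. Its other probe gave log2 0.03 (adjusted p = 0.97).

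Cyclin D1 and 6 of 33 S phase genes fell. Ccnd1, the cyclin that carries growth factor signals into the cell cycle, read 1827 and 4134 on the IDMB+EGF+TCDD arrays, against 14924 and 16541 on the EGF+TCDD arrays. Both arrays with the mix lay below both without it. Ccnd1 fell by 2.52 on the log2 scale (SE 0.39, adjusted p = 0.000816), with -1.93 without IDMB+EGF+TCDD 1 and -3.10 without IDMB+EGF+TCDD 2, and was called in each of these fits. Its other probe gave log2 -1.57 (adjusted p = 0.0961). Of the 33 S phase genes tested 6 fell (18.2%, against 3.24% of all genes), 27 did not pass and none rose, at a median of -1.06, and 1 of the 33 lay above 0. Cdc6, which loads the replicative helicase, read 1046 and 912 on the IDMB+EGF+TCDD arrays and 2722 and 3713 on the EGF+TCDD arrays (log2 -1.70, adjusted p = 0.00649). Mcm4, a subunit of that helicase, read 3086 and 2230 on the IDMB+EGF+TCDD arrays and 6824 and 7686 on the EGF+TCDD arrays (log2 -1.46, adjusted p = 0.0093). The calls of both were lost without EGF+TCDD 2 (0.0931 and 0.0887) or IDMB+EGF+TCDD 2 (0.0629 and 0.109). Mcm2, another subunit, changed by log2 -1.34 (adjusted p = 0.0106), and that call held only without IDMB+EGF+TCDD 2 (0.0704 to 0.0961 in the other 3 fits). Of 38 genes of G2 and mitosis none was called, at a median of -0.58. Cdk1, the mitotic kinase, read 23679 and 12023 on the IDMB+EGF+TCDD arrays and 32399 and 33637 on the EGF+TCDD arrays (log2 -0.97, SE 0.50, adjusted p = 0.303). Mki67, a marker of dividing cells, read 16172 and 6759 on the IDMB+EGF+TCDD arrays and 20408 and 18314 on the EGF+TCDD arrays (adjusted p = 0.543). For both, IDMB+EGF+TCDD 2 was the lowest of the 4 arrays. It was also the array with the highest actin ratio. With that ratio as a covariate the changes were log2 -0.82 for Cdk1 and -0.85 for Mki67, against -0.97 and -0.89 without it. Whether the ratio had a part in the low readings of that array was not tested.

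Of 16 smooth muscle and contractile genes tested 5 fell (31.2%, against 3.24% of all genes) and none rose. The median was log2 -0.51, and 0 of the 16 lay above 0. Acta2, smooth muscle actin, a mark of contractile fibroblasts, read 3038 and 3474 on the IDMB+EGF+TCDD arrays, against 32533 and 39421 on the EGF+TCDD arrays. It was 11.0-fold lower (log2 -3.46, SE 0.21, adjusted p = 8.07e-08), the smallest adjusted p of any gene named here. Tpm1, a tropomyosin, read 9447 and 11359 on the IDMB+EGF+TCDD arrays and 25142 and 29139 on the EGF+TCDD arrays (log2 -1.39, adjusted p = 0.00115). Tpm4, another tropomyosin, changed by log2 -1.01 (adjusted p = 0.00309, 0.0514 without IDMB+EGF+TCDD 1). Cnn2, a calponin, changed by log2 -1.41 (adjusted p = 0.00728), a call lost without EGF+TCDD 2 (0.0943) or IDMB+EGF+TCDD 1 (0.115). Myl9, a myosin light chain, read 84.4 and 537 on the IDMB+EGF+TCDD arrays and 1755 and 1473 on the EGF+TCDD arrays. Its change was log2 -2.53 (adjusted p = 0.0178), with -1.58 without IDMB+EGF+TCDD 1 and -3.49 without IDMB+EGF+TCDD 2, and only the last of the 4 fits called it (0.0874 to 0.224 in the others). In bulk RNA, fewer contractile cells and less RNA of these genes per cell cannot be told apart.

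Of these 5 contractile genes, Myl9 and Cnn2 are shown by their promoters because they held a CArG box, the motif that serum response factor is known to bind. The windows of the other 3 held no match to the letters searched for, and 1.47% of all 32851 windows held one. As with the glucocorticoid element, no match means only that these letters are not within 250 bases of the start. It does not show that a gene lacks a CArG box. The capitals mark the box, which begins 161 bases before the start in Myl9 (chr2:156775214-156775463, plus strand) and 56 bases before it in Cnn2 (chr10:79988350-79988599, plus strand). The 250 bases before each start are from RefSeq, GRCm38.p6.
Myl9: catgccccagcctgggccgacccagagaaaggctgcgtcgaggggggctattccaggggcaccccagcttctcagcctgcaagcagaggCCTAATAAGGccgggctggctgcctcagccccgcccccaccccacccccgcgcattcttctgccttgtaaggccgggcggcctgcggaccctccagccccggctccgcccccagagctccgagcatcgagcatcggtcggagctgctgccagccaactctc
Cnn2: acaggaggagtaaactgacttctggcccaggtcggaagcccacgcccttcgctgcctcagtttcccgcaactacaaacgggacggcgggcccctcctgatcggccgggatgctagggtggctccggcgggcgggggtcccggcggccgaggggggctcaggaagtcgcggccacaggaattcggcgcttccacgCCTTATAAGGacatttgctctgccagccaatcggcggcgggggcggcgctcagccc

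Among 46 extracellular matrix genes 4 rose and 7 fell (23.9%, against 6.99% of all genes). Ccn2, connective tissue growth factor, lay below the floor on both IDMB+EGF+TCDD arrays and read 2948 and 2143 on the EGF+TCDD arrays, at least 17.5-fold lower with the mix (adjusted p = 3.65e-05). Ccn1, its close relative, read 625 and 1533 on the IDMB+EGF+TCDD arrays and 3784 and 3885 on the EGF+TCDD arrays (log2 -1.97, adjusted p = 0.00576). Ccn1 gave -1.32 without IDMB+EGF+TCDD 1 (0.11) and -2.62 without IDMB+EGF+TCDD 2, and its call was also lost without EGF+TCDD 2 (0.0552). Mfap5, a microfibril protein, was 6.77-fold lower on its brighter probe (adjusted p = 9.94e-05) and log2 -0.19 on the other (adjusted p = 0.836). Dcn, the proteoglycan decorin, changed by log2 -1.81 (adjusted p = 0.00679), lost without EGF+TCDD 1 (0.0753) or IDMB+EGF+TCDD 1 (0.0815). Col1a1 was lower on both of its probes (log2 -0.66 and -1.38, adjusted p = 0.049 and 0.0118), and the call of the brighter was lost when any array was left out (0.134 to 0.264). The genes that rose included both chains of the basement membrane collagen IV. Col4a1 read 74097 and 59819 on the IDMB+EGF+TCDD arrays and 30893 and 28085 on the EGF+TCDD arrays (log2 1.18, adjusted p = 0.000398). Col4a2 was 2.91-fold higher (adjusted p = 0.000251), and Vcan, the proteoglycan versican, 3.43-fold higher (adjusted p = 0.00239).

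Of 11 genes of cholesterol synthesis tested 3 fell (27.3%, against 3.24% of all genes) and none rose. The median was log2 -1.06, and 1 of the 11 lay above 0. Sqle, squalene epoxidase, read 962 and 1373 on the IDMB+EGF+TCDD arrays, against 5497 and 5782 on the EGF+TCDD arrays, and fell by 2.29 on the log2 scale (adjusted p = 0.00427, 0.0659 without IDMB+EGF+TCDD 1). Fdps, farnesyl diphosphate synthase, changed by log2 -2.20 (adjusted p = 0.0347), a call lost in all 4 fits with 1 array left out (0.14 to 0.159). Hmgcs1, which makes HMG-CoA, changed by log2 -1.39 (adjusted p = 0.0134), and the fit without IDMB+EGF+TCDD 2 alone kept the call (0.0764 to 0.12 in the others).

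Of 25 interferon and antiviral genes 5 fell and 1 rose (24%, against 6.99% of all genes), at a median of -0.49. Isg15, a ubiquitin-like protein that interferon induces, read 844 and 235 on the IDMB+EGF+TCDD arrays and 3246 and 2362 on the EGF+TCDD arrays (log2 -2.64, adjusted p = 0.00427). Without IDMB+EGF+TCDD 2 it was -1.72 (0.0734), without IDMB+EGF+TCDD 1 it was -3.56, and the call was also lost without EGF+TCDD 1 (0.0568) or with the actin covariate (log2 -1.20, adjusted p = 0.584). The gene that rose was Ifi204, of the Ifi200 family, at 65580 and 45329 on the IDMB+EGF+TCDD arrays and 7851 and 8011 on the EGF+TCDD arrays (log2 2.78, adjusted p = 8.79e-06). Its probe is of the kind that can also read near-identical family members, so the share of each is uncertain.

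Both groups had received TCDD and EGF, and targets of each were listed. Of 13 AhR targets 1 rose and 1 fell (15.4%, against 6.99% of all genes), at a median of -0.09. Xdh, xanthine dehydrogenase, read 12091 and 4635 on the IDMB+EGF+TCDD arrays and 2750 and 1616 on the EGF+TCDD arrays (log2 1.83, adjusted p = 0.00774). It gave 1.14 without IDMB+EGF+TCDD 1 (0.141) and 2.52 without IDMB+EGF+TCDD 2, and its call was also lost without EGF+TCDD 2 (0.117). Nqo1, a quinone reductase, changed by log2 -0.99 (adjusted p = 0.028), lost without any of the 4 arrays (0.0684 to 0.198). Of 25 EGF and MAPK responsive genes Errfi1 rose and Ccnd1, Hbegf and Plaur fell (16%, against 6.99% of all genes), at a median of -0.21. Plaur, the urokinase receptor, was 7.54-fold lower (adjusted p = 0.00447), with log2 -3.51 without EGF+TCDD 1 and -2.31 without EGF+TCDD 2, where the call was lost (0.0908). Hbegf, an EGF receptor ligand, changed by log2 -1.91 (adjusted p = 0.0088), a call that held only without IDMB+EGF+TCDD 1 (log2 -2.61). It gave -1.20 without IDMB+EGF+TCDD 2 (0.134) and -0.74 with the actin covariate (0.704).

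The remaining large falls belonged to unrelated proteins. Wfdc18, a small secreted WAP domain protein, read 421 and 197 on the IDMB+EGF+TCDD arrays, against 6883 and 5389 on the EGF+TCDD arrays. At 21.2-fold (log2 -4.40, SE 0.53, adjusted p = 8.83e-05) it was the largest fall among the genes named that lay above the floor in both groups. It was called in all 4 fits with 1 array left out, but not with the actin covariate (log2 -2.81, adjusted p = 0.0812). Itgb4, an integrin of epithelial adhesion, and Fhdc1, a formin-like protein, were 7.72-fold and 7.70-fold lower (adjusted p = 0.00699 and 0.00452). Itgb4 kept its call only without IDMB+EGF+TCDD 2 (0.0536 to 0.0894 in the others). Fhdc1 lost its call without EGF+TCDD 1 (0.0593) or IDMB+EGF+TCDD 2 (0.0796, log2 -2.21), and gave -3.68 without IDMB+EGF+TCDD 1 and -1.91 with the actin covariate (0.421). Adcy7, an adenylyl cyclase, and Ces1d, a carboxylesterase, lay below the floor on both IDMB+EGF+TCDD arrays. On the EGF+TCDD arrays Adcy7 read 1169 and 607 and Ces1d 1498 and 880 (adjusted p = 0.0354 and 0.0137). The other probe of Ces1d gave log2 -2.20 and was not called (adjusted p = 0.225). Its called probe, like that of Ifi204, is of the kind that can also read near-identical family members. Adcy7 lost its call without any of the 4 arrays (0.0749 to 0.25), and Ces1d without any but EGF+TCDD 2 (0.0762 to 0.138).

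**Figure D2:**
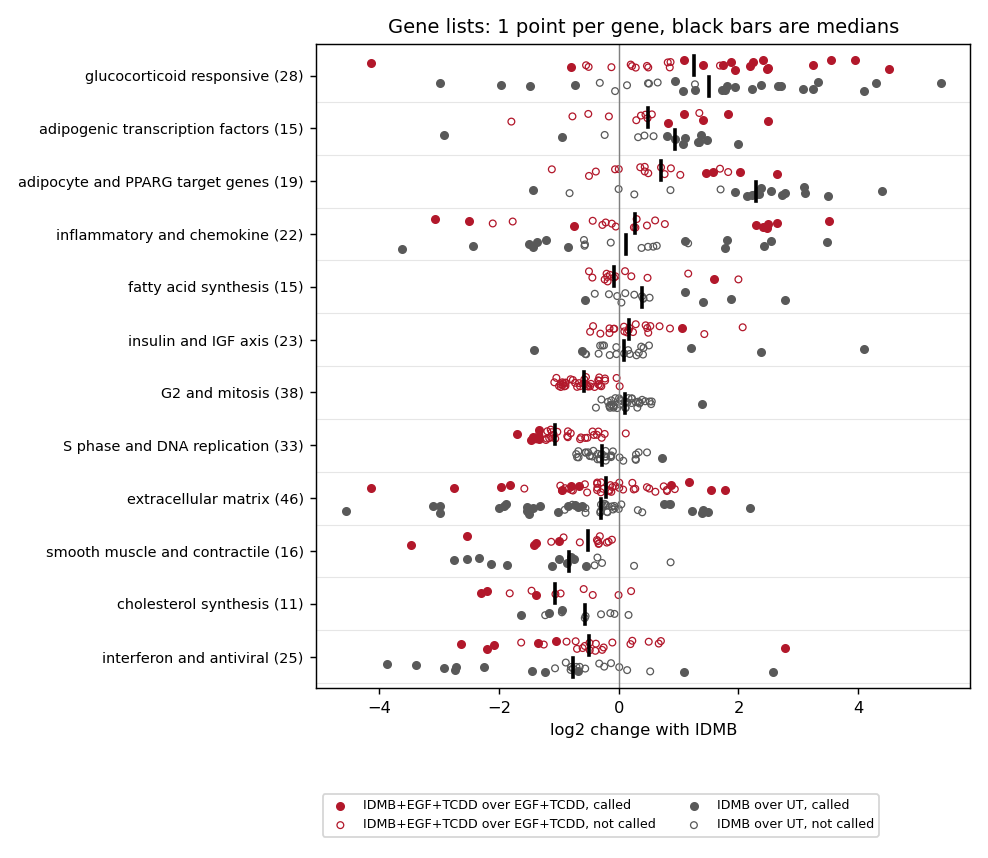
Log2 change of each tested gene in 12 lists, for IDMB+EGF+TCDD over EGF+TCDD (red, upper row of each pair) and IDMB over UT (grey, lower row), with called genes filled and black bars at the medians. The medians of adipocyte and PPARG target genes are 0.71 and 2.29, those of glucocorticoid responsive genes 1.25 and 1.5, and those of S phase genes -1.06 and -0.28. For the mix under EGF alone and under TCDD alone, which are not drawn, the S phase median was -0.92 in each.

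The response under EGF and TCDD was set beside the response of cells given neither agent, with which it shares no array. In those cells IDMB over UT changed 830 genes (15.3% of those tested), 390 up (7.17%) and 440 down (8.09%), with 3 arrays a group in place of 2. Of the 204 genes that rose under EGF and TCDD 125 also rose there (61.3% of the 204 and 32.1% of the 390). Of the 176 that fell 94 also fell there (53.4% of the 176 and 21.4% of the 440), and 1 was called in the opposite direction. Rgs2 changed by log2 4.77 under EGF and TCDD and 4.74 without them, Acta2 by -3.46 and -2.75, and Serpina3n by 3.51 and 3.47. Ccnd1 changed by -2.52 and -2.70, and Fkbp5 by 2.48 and 4.29. For none of these 5 did the difference between the responses pass its test. Across the 5438 genes, which are not independent replicates, the responses correlated at r 0.548, with a rank correlation of 0.436.

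The difference itself passed the test for 54 probes (0.757% of 7134), 24 with a higher log2 change under EGF and TCDD and 30 with a lower one, signs included. By gene the counts were 19 (0.349%) and 27 (0.497%), together 46 of 5438 (0.846%). Without 1 array these counts ran from 1 to 44 and from 6 to 37. Leaving out IDMB+EGF+TCDD 2 gave 1 and 6, EGF+TCDD 1 gave 3 and 9, EGF+TCDD 2 gave 10 and 11, IDMB+EGF+TCDD 1 gave 8 and 14, and UT 2 gave 7 and 15. Without IDMB 2 there were 12 with a higher change, and without IDMB 3 there were 44. With the actin ratio as a covariate they were 9 and 15.

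Fat cell genes stood among those with the lower change. Of the 19 adipocyte and PPARG target genes 4 had a lower change under EGF and TCDD and none a higher one, against 0.497% of all genes with a lower one. The median of the differences over the 19 was log2 -1.12. Plin2 read 14592 and 13097 on the IDMB+EGF+TCDD arrays and 9918 and 11719 on the EGF+TCDD arrays. On the IDMB arrays it read 61174, 90973 and 81397, against 10551, 19133 and 16950 on the UT arrays. In both settings the arrays with the mix lay above those without it, by log2 0.36 (not called) and 2.35, and the responses differed by log2 -1.99 (SE 0.31, adjusted p = 0.0102, 0.0585 without IDMB+EGF+TCDD 2). Pnpla2 read 24280, 23943 and 20749 on the IDMB arrays and 2729, 2429 and 2884 on the UT arrays. It rose in both settings, by log2 1.46 under EGF and TCDD and 3.10 without them, a difference of -1.64 (adjusted p = 0.0102). That call was lost without EGF+TCDD 2 or IDMB+EGF+TCDD 2, with 0.0661 the highest adjusted p. Abhd5 rose by 1.57 under EGF and TCDD and 3.49 without them, a difference of -1.92 (adjusted p = 0.0184). It was called in 5 of 10 fits with 1 array left out, and lost without UT 2 or any of the 4 arrays with EGF and TCDD. Ephx2, soluble epoxide hydrolase, read 330 and 79.4 on the IDMB+EGF+TCDD arrays and 181 and 55.8 on the EGF+TCDD arrays. It read 3825, 7698 and 3786 on the IDMB arrays and 121, 291 and 291 on the UT arrays. The difference was log2 -3.96 (SE 0.70, adjusted p = 0.0149), lost without EGF+TCDD 1 or IDMB+EGF+TCDD 2 (up to 0.0929), and ran from -4.56 to -3.35 without IDMB+EGF+TCDD 1 and 2.

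Among the other genes whose response differed, some also read differently between EGF+TCDD and UT, a difference that was not tested. Tiparp, an AhR target that encodes a poly(ADP-ribose) polymerase, read 12161 and 10758 on the IDMB+EGF+TCDD arrays and 10360 and 14264 on the EGF+TCDD arrays, which overlapped. It read 2764, 5376 and 4041 on the IDMB arrays and 1118, 562 and 844 on the UT arrays, which did not. Fosl1, a Fos family member that growth factors induce, read 2734 and 3364 on the IDMB+EGF+TCDD arrays and 3474 and 3332 on the EGF+TCDD arrays. On the IDMB arrays it read 2111, 2895 and 3111, against 428, 155 and 318 on the UT arrays. Of these 4 groups only UT was low. The difference for Tiparp was log2 -2.36 (adjusted p = 0.0239), lost without IDMB 2, UT 2 or any of the 4 arrays with EGF and TCDD. That for Fosl1 was -3.44 (adjusted p = 0.0114), lost without EGF+TCDD 1, IDMB+EGF+TCDD 1 or IDMB+EGF+TCDD 2. Mapk6, an atypical MAP kinase, read 2613 and 2481 on the IDMB+EGF+TCDD arrays and 5079 and 5113 on the EGF+TCDD arrays. It read 15837, 18317 and 12517 on the IDMB arrays and 5217, 4614 and 5116 on the UT arrays. The readings of EGF+TCDD lay within those of UT. Mapk6 fell by 1.00 on the log2 scale under EGF and TCDD, a call lost without EGF+TCDD 2 (0.0532) or IDMB+EGF+TCDD 2 (0.0541), and was higher with the mix in the cells without them (difference log2 -2.63, SE 0.26, adjusted p = 0.000145), called in all 10 fits. Apcdd1, an inhibitor of Wnt signalling, read 1033 and 709 on the IDMB+EGF+TCDD arrays and 666 and 760 on the EGF+TCDD arrays. It read 5285, 12395 and 8214 on the IDMB arrays and 792, 970 and 658 on the UT arrays (difference log2 -3.09, SE 0.44, adjusted p = 0.00763), and was also called in all 10 fits.

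Genes with the higher change included secreted factors and a receptor. Gas6 rose by log2 3.14 under EGF and TCDD and by 1.18 without them. On the IDMB arrays it read 16447, 23642 and 29270, against 7515, 13211 and 9820 on the UT arrays, and the difference was log2 1.95 (adjusted p = 0.0252), a call lost without IDMB 2, UT 2 or any of the 4 arrays with EGF and TCDD. Bmp4, a morphogen of the bone and fat lineages, read 4592 and 8889 on the IDMB+EGF+TCDD arrays and 13771 and 15398 on the EGF+TCDD arrays. It read 1757, 2676 and 2999 on the IDMB arrays and 27411, 21260 and 30129 on the UT arrays. It fell less under EGF and TCDD, with a difference of log2 2.24 (adjusted p = 0.0138), lost without EGF+TCDD 1 or IDMB+EGF+TCDD 2 (up to 0.0816). Ccn5, a relative of Ccn2, changed by log2 0.75 under EGF and TCDD and -1.5 without them (difference 2.25, adjusted p = 0.0102), lost without the same arrays (up to 0.0661). Cxcl12, a chemokine of stromal cells, differed by log2 1.62 and 2.94 on 2 probes (adjusted p = 0.0169 and 0.0102) and by 1.05 on the remaining probe (adjusted p = 0.247). The probe that gave 2.94 is of the kind that can also read near-identical family members. The call of the first was lost without EGF+TCDD 1, EGF+TCDD 2, IDMB+EGF+TCDD 2 or UT 2, and that of the second without IDMB+EGF+TCDD 2. Npy1r, a receptor of neuropeptide Y, read 253 and 405 on the IDMB+EGF+TCDD arrays and 250 and 174 on the EGF+TCDD arrays. It read 296, 81.7 and 313 on the IDMB arrays and 4926, 6280 and 1338 on the UT arrays, so of these 4 groups only UT was bright (difference log2 4.49, adjusted p = 0.026). Its call was lost without IDMB 2, UT 1, UT 2 or any of the 4 arrays with EGF and TCDD.

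**Figure D3:**
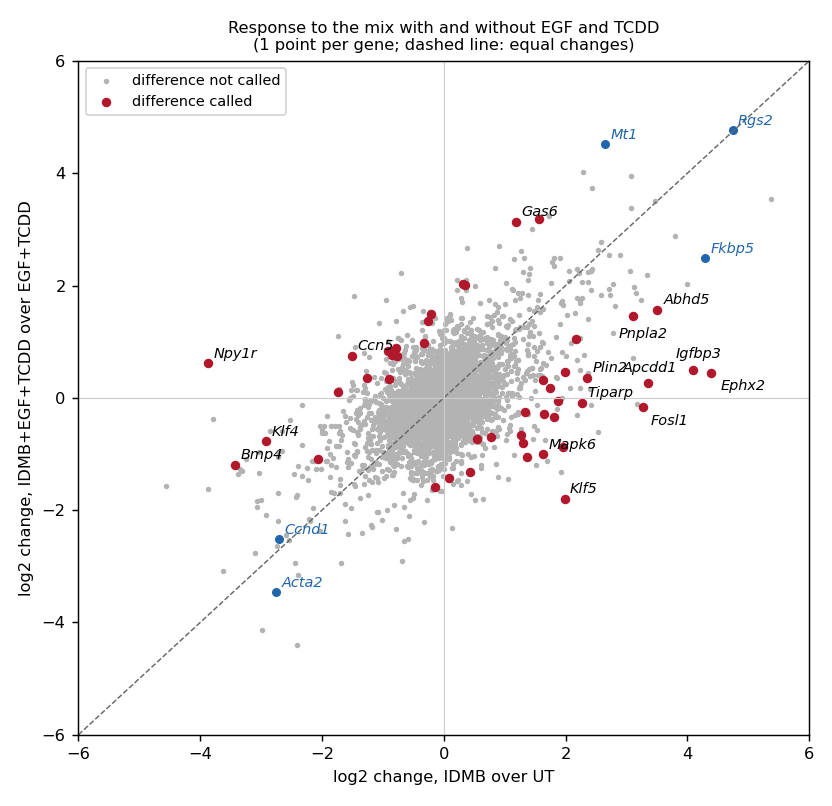
Log2 change of 5438 genes for IDMB+EGF+TCDD over EGF+TCDD (vertical axis) against IDMB over UT (horizontal axis), with the 46 genes whose difference was called in red. Ephx2, Igfbp3 and Plin2 lie near 0 on the vertical axis, while Rgs2, Ccnd1 and Acta2 (blue) lie near the dashed line of equal changes.

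**Figure D4:**
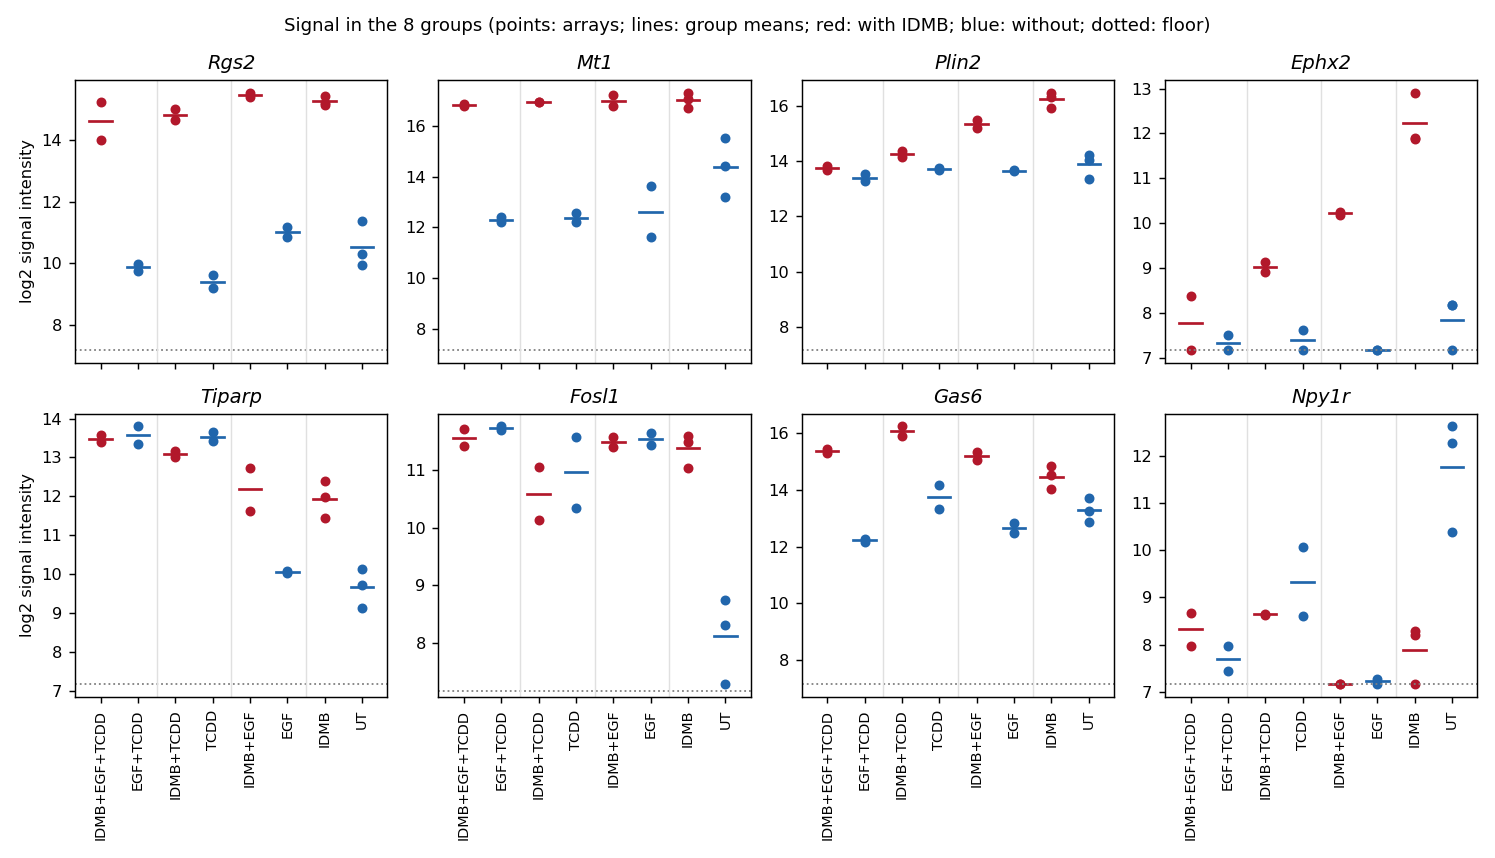
Signal of 8 genes on all 18 arrays by group, each IDMB group (red) left of its partner without IDMB (blue), on log2 axes with group means as lines. Rgs2 is high in all 4 IDMB groups, Plin2 and Ephx2 are highest in IDMB and, of the IDMB groups, lowest in IDMB+EGF+TCDD, and the UT arrays are the lowest for Fosl1 and the highest for Npy1r.

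Against the cells that had EGF alone or TCDD alone no difference in response was called. Compared with IDMB+EGF over EGF, 0 of 7134 probes passed in limma (0% called, smallest adjusted p = 0.424), and 224 had an unadjusted p under 0.05. Compared with IDMB+TCDD over TCDD, 0 passed (smallest adjusted p = 0.144), and 532 had an unadjusted p under 0.05. Those tests had a median SE of log2 0.41, which limits the differences that could be detected. Plin2 changed by log2 0.36 under EGF and TCDD together, 1.68 under EGF, 0.53 under TCDD and 2.35 with neither. Ephx2 changed by 0.43 under both agents, 3.05 under EGF, 1.63 under TCDD and 4.39 with neither. Pnpla2 changed by 1.46 under both, 2.45 under EGF, 1.31 under TCDD and 3.10 with neither. Of the 33 S phase genes, 6 fell with the mix under both agents, 10 under EGF alone and 10 under TCDD alone. With neither agent 0 fell and 1 rose. Their median log2 changes in these settings were -1.06, -0.92, -0.92 and -0.28. Of the 33 differences between the response under both agents and that with neither, 30 lay below 0 and none was called.

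Marker lists of other cell types held few genes bright enough to test. Of 20 macrophage genes on the array 5 were bright enough to test and 0 were called, Lyz2 lay below the floor on all 4 arrays, and Cd68 and Ptprc were too dim to test. Their summed intensity was 10689 and 14042 on the IDMB+EGF+TCDD arrays and 13912 and 10993 on the EGF+TCDD arrays. Of 13 endothelial genes 3 were tested and 0 called, with Cdh5 and Kdr too dim, and sums of 9586 and 11717 on the IDMB+EGF+TCDD arrays and 17639 and 12885 on the EGF+TCDD arrays. Of 17 epithelial genes 4 were tested (Epcam and Krt8 were too dim) and Lcn2 alone rose (25%, against 3.75% of all genes). Lcn2 made up most of the sums of 76895 and 89324 on the IDMB+EGF+TCDD arrays against 18943 and 23039 on the EGF+TCDD arrays. Of 27 skeletal muscle genes 10 were tested and 1 fell (10%, against 3.24% of all genes). Their sums were 13363 and 16927 on the IDMB+EGF+TCDD arrays and 20529 and 21771 on the EGF+TCDD arrays. Of 8 bone and cartilage genes tested 1 rose and 1 fell (25%, against 6.99% of all genes). Of 14 fibroblast genes 2 fell (14.3%, against 3.24% of all genes) and none rose.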

How the data were processed

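Gene expression was measured on 18 mouse Affymetrix arrays in 8 groups. The deposited values are signal intensities on a linear scale, per the labels and the file itself; the software that made them was not given in the sources used here. The mean of each array without its outer 2% was about 2501, so the arrays had been scaled by the authors. The intensity values were used as deposited, raised to a floor of 143.5 (20th percentile) and taken to log2. Control probes (66 of 12488) were left out. A probe was tested where the highest of its 8 group means was at or above 9.73, the median log2 value, leaving 7134 probes and 5438 genes. Of the probes, 10833 had 1 gene symbol, 396 several and 1193 none, and a gene was represented by its probe with the highest mean over all arrays.

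Limma 3.58.1 in R 4.3.3 was fitted with 1 mean per group over all 18 arrays and a trend of the variance on the mean signal (10 residual degrees of freedom and a prior of 6.03), because 2 arrays against 2 leave little to estimate the spread from. Benjamini-Hochberg adjustment ran over the 7134 probes within a comparison, and "called", "rose" and "fell" mean an adjusted p under 0.05. All p-values in the text are limma's. Differences between responses were tested as contrasts of contrasts. Fits with 1 array left out keep 1 array in its group, whose spread is then taken from the other groups. The fit was tested on simulated data before use. For IDMB+EGF+TCDD over EGF+TCDD it recovered 42% of changes of log2 1 and 83% of those of log2 2. Of its 130 calls 5 were false. For the difference from the response without EGF or TCDD it recovered 19% and 74%, with 1 false call of 94. A change that was not called is therefore not shown to be absent. The number of arrays limits the precision.

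The 28 gene lists, which share members, held 799 different genes. The array measured 667 of them, and 481 were bright enough to test. The comparison, the members and the lists were chosen with earlier results of these data known. Genes were named if they marked a list, were among the 15 largest called changes in each direction without overlap of arrays, were among the 8 largest called differences between responses in each direction, or were called members of a list. Alternatives tried were the floor, the filter, the scaling, the trend, the replicate numbers as a block, the control probes' 3' to 5' ratios, the arrays fitted, and each array left out.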

Additional observations from a re-analysis of the deposited data

Results flagged for a closer look

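The response to the mix under EGF and TCDD differed from the response without them, by a test of the difference itself, for 24 probes in the higher direction and 30 in the lower (limma, adjusted p under 0.05). The differences below are log2 changes under EGF and TCDD minus those without, for the probes of genes named in the text. In the lower direction they were -3.96 for Ephx2, -3.78 for Klf5, -3.60 for Igfbp3, -3.44 for Fosl1, -3.09 for Apcdd1 and -3.03 for Klf10, whose other probe gave -1.57 and was not called (adjusted p = 0.129). Smaller ones were -2.83 for Celf2, -2.63 for Mapk6, -2.36 for Tiparp, -1.99 for Plin2, -1.92 for Abhd5 and -1.64 for Pnpla2. In the higher direction they were 1.61 for Pdgfrb, 1.62 for Wdr92, 1.62 and 2.94 for probes of Cxcl12, 1.84 for Synpo, 1.89 for Nrp1 and 1.95 for Gas6. Larger ones were 2.14 for Klf4, 2.24 for Bmp4, 2.25 for Ccn5 and 4.49 for Npy1r.

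Klf5, a regulator of early fat cell differentiation, read 852 and 191 on the IDMB+EGF+TCDD arrays and 1414 and 1386 on the EGF+TCDD arrays, against 1502, 2053 and 1260 on the IDMB arrays and 324, 433 and 447 on the UT arrays. Its difference ran from -4.85 to -2.70 over 10 fits with 1 array left out, and the call was lost without EGF+TCDD 1, EGF+TCDD 2, IDMB+EGF+TCDD 2, IDMB 2, UT 1 or UT 2. Igfbp3, which binds insulin-like growth factors, read 284 and 91.3 on the IDMB+EGF+TCDD arrays, against 4284, 1847 and 1871 on the IDMB arrays, and lay below the floor on all EGF+TCDD and UT arrays. Its call held only without IDMB 3 or UT 3. Klf4, a factor of pluripotent and differentiating cells, changed by log2 -0.77 under EGF and TCDD and -2.91 without them, and its call held only without IDMB 1 or UT 1. The call of Wdr92 (adjusted p = 0.0484) held in 2 of 10 fits, those without IDMB 3 or UT 3. Of these probes, Mapk6 and Apcdd1 were called in all 10 fits. No group holds enough arrays to test for single outlying arrays.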

How the results depend on the processing

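Counts of probes called for IDMB+EGF+TCDD over EGF+TCDD (246 higher, 218 lower) stayed within 1.5 times under other floors, quantile normalization, no trend, the Gapdh ratio and the fit of these 4 arrays alone. Arrays scaled to 1 median gave 230 higher and 140 lower, and the actin ratio as a covariate 67 higher and 34 lower. With 1 array left out they ran from 105 to 143 and from 54 to 87. The difference from the response without EGF or TCDD (24 higher, 30 lower) gave 8 and 15 without the filter, 14 higher without the trend, 9 and 15 with the actin ratio, 5 and 7 on the arrays compared alone, and 1 to 44 and 6 to 37 with 1 array left out. The difference from the response under EGF (0) gave 1 at the 40th percentile floor, 2 without the filter and 0 to 1 with 1 array left out. That from the response under TCDD (0) gave 6 without the filter, 1 without the trend and 0 to 1 with 1 array left out. The causes were not tested. The replicate numbers as a block gave 296 and 270 calls for the mix under EGF and TCDD (454 of 566 shared) and 44 and 47 for the difference without agents. The labels give no shared source for a number, and the deviations of same-numbered arrays correlated at 0.0477, so the numbers were not taken as pairs. Among the genes named, 6 whose change under EGF and TCDD was not called changed sign when 1 array was left out. Their log2 values ran from -0.249 to 1.12 for Adipoq, -0.0043 to 0.54 for Apcdd1, -0.17 to 1.04 for Ephx2, -0.079 to 0.25 for the brighter probe of Igf1, -0.071 to 0.96 for Pparg and -0.32 to 0.14 for Tiparp. The actin ratio as a covariate gave -0.57 for Adipoq and 0.57 for Tiparp.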
